A study of Mus musculus with 14 samples.

Results

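Liver RNA in 14 libraries from littermate mice was examined for the cytochrome P450 genes of families 1, 2 and 3. The genes were taken by name (Cyp1, Cyp2 or Cyp3, a subfamily letter and a number) and by a mean of at least 0.5 CPM over the 14 libraries, where CPM is the usual depth-scaled count, here scaled to the effective library size. Of 57180 genes in the deposited table, 59 carried such a name and 40 reached the minimum. All 40 were among the 16201 genes that had enough counts to be tested. They fell into 12 subfamilies, with 13 genes in Cyp2c, 8 in Cyp2d, 4 each in Cyp2a and Cyp3a, 3 in Cyp2j, 2 in Cyp1a and 1 each in Cyp1b, Cyp2e, Cyp2f, Cyp2g, Cyp2r and Cyp2u.

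The labels class the mice as littermate WT Cre (6 libraries, here WT), littermate Pkd1 Het Cre (4 libraries, Het) and littermate Pkd1 Homo Cre (4 libraries, Homo). All groups carry Cre in the label and were fed a normal chow diet. Pkd1 encodes polycystin-1, the membrane protein mutated in most families with dominant polycystic kidney disease, which also forms liver cysts. The labels do not give the allele, the Cre driver, the age, the sex, the litter or a batch. Each library carries its own number within its group in the label, and the p-values set group differences against the spread between libraries.

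P450 enzymes of families 1 to 3 are heme proteins of the endoplasmic reticulum that oxidise drugs, plant compounds, steroids, bile acids and fatty acids. They take electrons from P450 oxidoreductase (Por), and in liver several are induced by foreign compounds through the receptors AhR, CAR (Nr1i3) and PXR (Nr1i2). Many lie in clusters of near-identical copies, some are set by sex through growth hormone, and many are made mainly by the hepatocytes around the central vein.

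The targeted gene was checked first. Pkd1 in the WT libraries ran from 31.4 to 37.7 CPM with a median of 35.2 CPM, the Het libraries held 31.6, 28.1, 32.6 and 36.7 CPM, and the Homo libraries 23.1, 26.1, 25.5 and 26.4 CPM. Homo libraries were all below WT and Het, while Het overlapped WT. The log2 fold change was -0.46 in Homo against WT (SE 0.0802, edgeR adjusted p = 0.0246) and -0.11 in Het against WT (edgeR adjusted p = 0.998). The Homo call was lost without any single one of WT 3, WT 4, WT 6 or the 4 Homo libraries, with edgeR adjusted p between 0.0567 and 0.131. It was also lost when counts were scaled by the library total alone (edgeR adjusted p = 0.0576) and with a replicate block (edgeR adjusted p = 0.0710). Library totals ran from 18573686 to 40925909 counts. Of the hepatocyte markers 5 of 6 were in the table, and their summed level was 51459 CPM or more in every library. Of the 5 lung airway markers, Scgb1a1, Scgb3a2, Sftpb and Sftpc were at 0 in all libraries, and the list summed to at most 0.948 CPM. Summed gut epithelium markers were at 37.1 to 59.3 CPM in WT, 39.2 to 49.9 CPM in the Het libraries and 35.8 to 39.3 CPM in Homo. Kidney tubule markers summed to 2.68 CPM or less in every library. Summed lymphocyte markers were at 5.42 to 15.03 CPM in WT, 16.97 to 19.4 CPM in the Het libraries and 17.8 to 25.5 CPM in Homo, and their part in the results was not tested. In whole tissue, fewer cells of a type and less RNA per cell cannot be told apart.

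Near-identical copies decide how far single genes can be read. Among the 39 P450 genes with a coding sequence in GENCODE M21, 13 had another gene of the families at 95% identity or more, 20 at 90% or more and 26 at 80% or more. Cyp2a4 and Cyp2a5 differed at 23 of 1482 coding bases. Cyp2a4 is a steroid 15-alpha-hydroxylase known for its female-biased liver expression, and Cyp2a5 is the mouse coumarin hydroxylase. The stretch from coding base 596 to 655 holds 4 of the 23 differences, shown in capitals, to let the scale of the difference be seen.
Cyp2a4: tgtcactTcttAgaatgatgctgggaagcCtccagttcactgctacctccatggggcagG
Cyp2a5: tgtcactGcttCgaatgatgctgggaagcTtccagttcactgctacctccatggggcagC

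The 250 bases before the start site of the same pair, from RefSeq on build GRCm38.p6, are shown because the genes differ so much in level. Cyp2a4 lies at chr7:26306942-26307191 and Cyp2a5 at chr7:26835089-26835338, both on the plus strand of chromosome 7, and capitals mark mismatched or unpaired bases. Of 249 aligned bases 245 were identical, with 4 mismatches. The 2 unpaired bases, the first A of Cyp2a4 and the last T of Cyp2a5, are window ends and not differences between the genes.
Cyp2a4: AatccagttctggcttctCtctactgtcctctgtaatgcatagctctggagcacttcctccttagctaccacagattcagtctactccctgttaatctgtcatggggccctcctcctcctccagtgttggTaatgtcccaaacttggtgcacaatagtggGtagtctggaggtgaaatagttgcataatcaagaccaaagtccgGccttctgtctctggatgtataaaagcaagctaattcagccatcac
Cyp2a5: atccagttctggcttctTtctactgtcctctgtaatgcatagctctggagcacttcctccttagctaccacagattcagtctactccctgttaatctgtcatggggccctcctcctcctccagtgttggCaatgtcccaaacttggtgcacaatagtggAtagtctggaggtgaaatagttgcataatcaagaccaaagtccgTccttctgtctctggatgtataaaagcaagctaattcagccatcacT

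A Cyp2c group on chromosome 19 repeats this. Cyp2c40, Cyp2c67, Cyp2c68 and Cyp2c69 had a closest relative within the group at 97.7% to 98.1% coding identity. Their upstream 250 bases, all on the minus strand, are printed with the letters CAAAGTCCA in capitals, a form of the sequence that HNF4A binds. Cyp2c40 is at chr19:39812815-39813064, Cyp2c67 at chr19:39649043-39649292, Cyp2c68 at chr19:39741102-39741351 and Cyp2c69 at chr19:39886770-39887019.
Cyp2c40: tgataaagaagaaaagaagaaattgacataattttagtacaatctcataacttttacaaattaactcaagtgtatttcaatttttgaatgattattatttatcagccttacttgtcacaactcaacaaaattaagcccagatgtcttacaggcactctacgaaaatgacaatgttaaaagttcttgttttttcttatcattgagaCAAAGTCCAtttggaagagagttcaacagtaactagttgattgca
Cyp2c67: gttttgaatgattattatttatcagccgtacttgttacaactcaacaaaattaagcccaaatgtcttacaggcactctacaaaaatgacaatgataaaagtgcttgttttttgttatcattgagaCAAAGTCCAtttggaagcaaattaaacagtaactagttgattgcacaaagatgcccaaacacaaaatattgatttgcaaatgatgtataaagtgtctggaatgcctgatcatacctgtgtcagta
Cyp2c68: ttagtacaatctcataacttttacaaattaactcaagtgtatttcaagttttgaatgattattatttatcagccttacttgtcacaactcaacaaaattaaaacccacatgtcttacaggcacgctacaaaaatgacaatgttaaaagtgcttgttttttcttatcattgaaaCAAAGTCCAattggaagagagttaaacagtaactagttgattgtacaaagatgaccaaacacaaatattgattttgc
Cyp2c69: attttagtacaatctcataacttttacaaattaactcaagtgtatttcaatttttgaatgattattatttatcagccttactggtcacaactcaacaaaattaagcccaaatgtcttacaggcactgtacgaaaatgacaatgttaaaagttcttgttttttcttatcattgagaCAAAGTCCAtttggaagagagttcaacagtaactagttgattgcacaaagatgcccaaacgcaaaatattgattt
In these windows the letters end between 37 and 117 bases before the start. Aligned pairs of the 4 windows were 92.9% to 98.6% identical, so the 4 matches are not independent of each other.

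The RefSeq promoter table held 33 of the 40 P450 genes and 27025 promoters in all, and 4 motifs were searched on both strands. CAAAGTCCA was in 6 of 33 (18.2%), the 4 above with Cyp2c70 and Cyp3a11, against 103 of 27025 (0.381%). TATAAA was in 19 of 33 (57.6%), against 13% of all. TTGCNNAA, the C/EBP letters, was in 7 of 33 (21.2%) against 9.55%, and GCGTG, the AhR core, in 4 of 33 (12.1%) against 28.2%. A match is a description of these letters in this window, and copies are not independent.

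The 40 genes took 1.30% of all counts, from 1.16% in Homo 2 to 1.41% in WT 2. Per kilobase of merged exons (GENCODE M21, lengths for 39 genes), Cyp2e1 stood first at a mean of 1979 CPM per kb. It oxidises ethanol and acetaminophen, and it alone took 32.7% of the P450 reads. Cyp2f2, which activates naphthalene, followed at 546 CPM per kb, then the male-biased testosterone 16-alpha-hydroxylase Cyp2d9 at 387, the caffeine and arylamine oxidase Cyp1a2 at 323, Cyp2d26 at 302 and the muricholic acid enzyme Cyp2c70 at 283 CPM per kb. In WT the SD of these levels was 140 for Cyp2e1, 40.8 for Cyp2f2, 16.1 for Cyp2d9, 29.7 for Cyp1a2, 17.7 for Cyp2d26 and 84.5 CPM per kb for Cyp2c70 (n = 6). Cyp1a2, Cyp2d26 and Cyp2c70 did not differ beyond that spread. Cyp1b1, mainly an enzyme of other tissues, was lowest at 0.122 CPM per kb. The gene lies on chromosome 17, as Pkd1 does. On the CPM scale 20 genes reached 100 CPM, 8 lay from 10 to 100 CPM, 5 from 1 to 10 CPM and 7 from 0.5 to 1 CPM. The 19 genes under the minimum included the CAR target Cyp2b10 at 0.194 CPM and the female-biased Cyp2b9 and Cyp2b13 at 0.0391 and 0.00739 CPM.

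**Figure D1:**
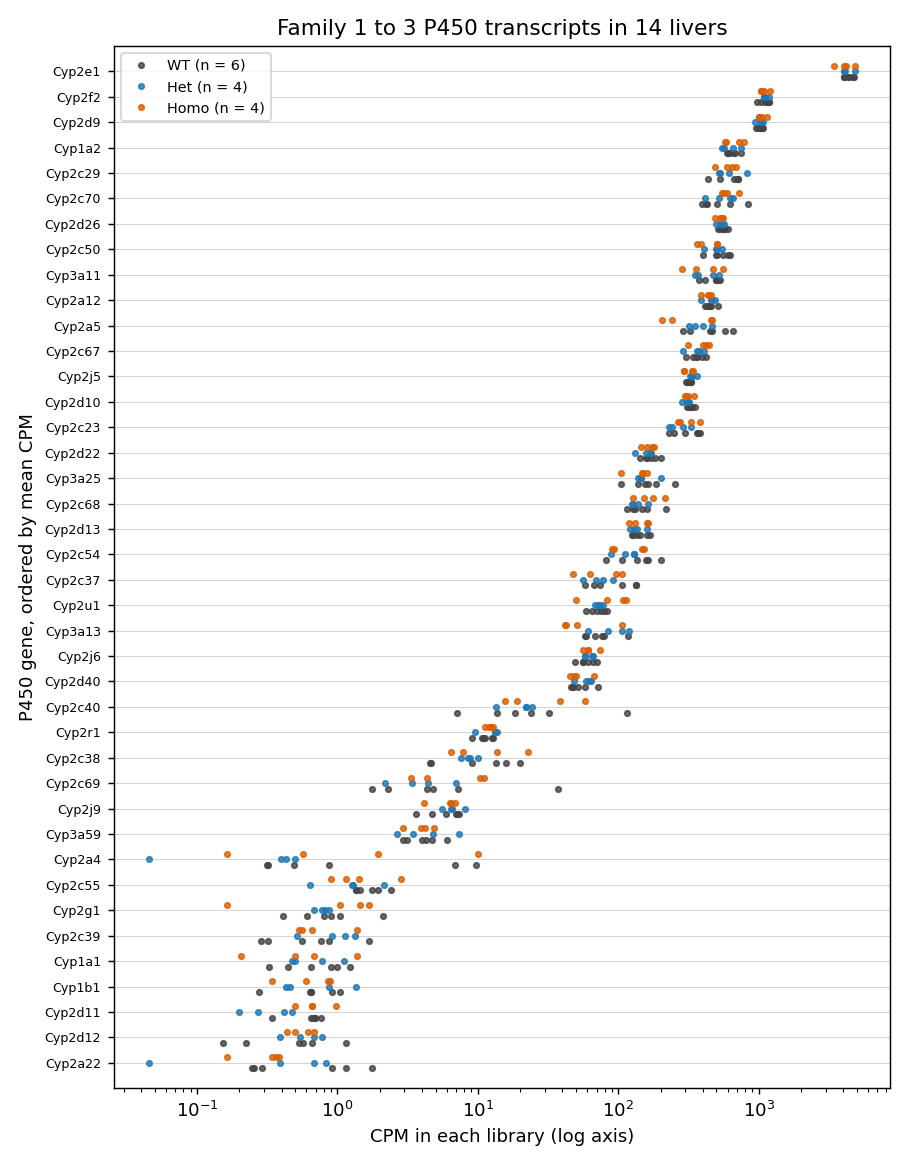
CPM of each P450 gene (rows, highest mean at the top) on a log axis, 1 point a library, with WT, Het and Homo in separate colours. Cyp2e1 lies alone near 4270 CPM, and the points of most genes above 100 CPM lie close together while those of Cyp2c69 and Cyp2a4 spread widely.

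The first comparison asks whether P450 genes differed in the Homo livers. None passed the threshold: 0 of 40 genes were called in Homo against WT by edgeR's quasi-likelihood test, where 36 of 16201 genes (0.222%) were called. At an unadjusted p under 0.05 the edgeR count was 0 of 40, where 4.73% of all genes passed, and DESeq2 gave 0 called and 1 unadjusted. No P450 gene had Homo libraries all above or all below the WT libraries, against 1.15% of all genes. Folds lay below 0 in 26 genes (49.4% of all genes) and above in 14, with a median log2 fold of -0.03 against 0.00 for all genes. Scaled by the library total alone, 21 lay below 0, but the median log2 fold of all genes also rose, to 0.04. Over 21 alternative settings the count below 0 ran from 20 of 40 (without WT 4) to 28 (without WT 6). Without WT 4 the median log2 fold of all genes was 0.0024, so the split rested in part on that library.

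The interval of each fold says how large a change these livers could still hide. In Homo against WT the 95% interval lay inside 1.5-fold in either direction for 20 of 40 genes and inside 2-fold for 32. Cyp2e1, Cyp2f2, Cyp2d9 and Cyp1a2 were among the closely bounded: the fold was 0.945 for Cyp2e1 (interval 0.823 to 1.09), 0.988 for Cyp2f2 (0.889 to 1.10), 1.03 for Cyp2d9 (0.940 to 1.13) and 1.03 for Cyp1a2 (0.872 to 1.21). The 8 genes not inside 2-fold were Cyp1a1, Cyp2a4, Cyp2a22, Cyp2c38, Cyp2c39, Cyp2c40, Cyp2c69 and Cyp2g1. The highest mean among these 8 was 30.3 CPM, in Cyp2c40.

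**Figure D2:**
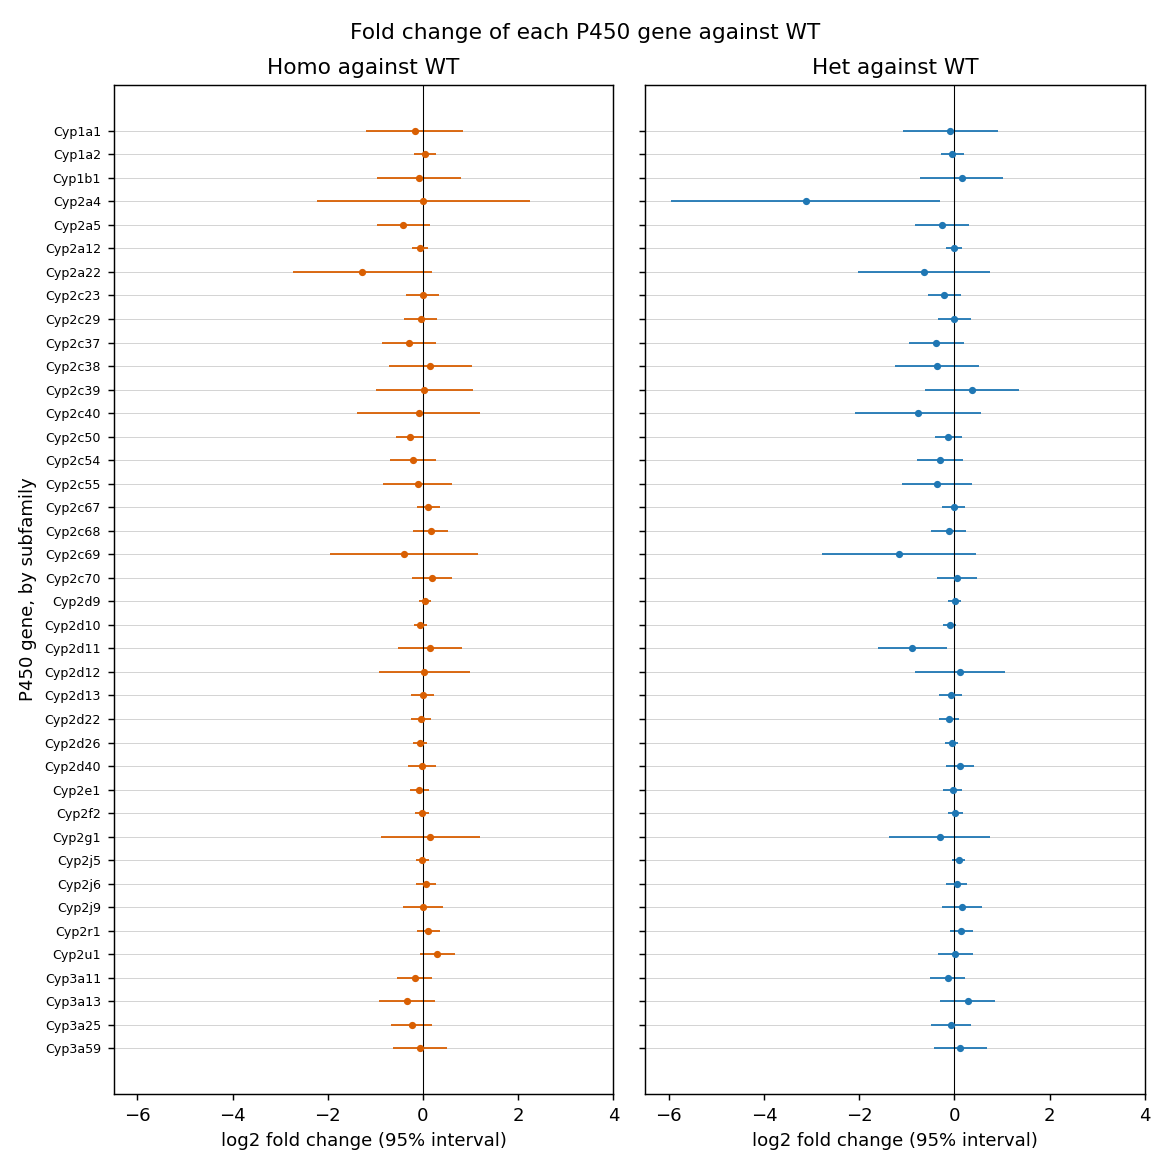
Log2 fold change of each P450 gene with its 95% interval, for Homo against WT on the left and Het against WT on the right, from the edgeR fit. In Homo against WT every interval crosses 0, and the widest belong to low or variable genes such as Cyp2a4, Cyp2a22 and Cyp2c69.

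In family 1, Cyp1a2 held 590, 636 and 748 CPM in the lowest, median and highest WT library, 660, 551, 750 and 565 CPM in the Het libraries and 726, 586, 783 and 575 CPM in Homo. The groups overlapped fully. The log2 fold in Homo was 0.04 (SE 0.112, edgeR adjusted p = 0.998) and -0.04 in Het, and its sign turned without single libraries. Cyp1a1, which oxidises polycyclic aromatic hydrocarbons and is induced strongly through AhR, was at 0.327, 0.774 and 1.23 CPM in the lowest, median and highest WT library. It reached 0.501, 0.773, 1.11 and 0.474 CPM in the Het libraries and 0.495, 0.204, 0.680 and 1.37 CPM in Homo, so no library passed 1.37 CPM. Cyp1b1 lay between 0.278 and 1.35 CPM in all libraries.

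Of Cyp2a, 3 of 4 folds lay below 0 in Homo (49.4% of all genes) and all 4 in Het (50% of all genes). The Het fold of Cyp2a12 was -0.0005 on the log2 scale, so it did not change. Cyp2a4 and Cyp2a5 are near-identical copies, as are Cyp2a12 and Cyp2a22, so these signs are not independent. Cyp2a5 ran from 287 to 656 CPM in WT, with a median of 456 CPM. The Het libraries held 398, 318, 465 and 351 CPM, and the Homo libraries 460, 204, 243 and 467 CPM. Homo 2 and Homo 3 lay under all WT libraries, while Homo 1 and Homo 4 lay within them. The log2 fold was -0.42 (SE 0.263, edgeR adjusted p = 0.998). Cyp2a12, which hydroxylates bile acids again after bacteria have changed them, was steady, at 413, 440 and 514 CPM in the lowest, median and highest WT library. Its Het libraries ran from 390 to 486 CPM and its Homo libraries from 390 to 456 CPM. Cyp2a22, 97.0% identical to Cyp2a12, stayed at 1.75 CPM or less, and its log2 fold in Homo was -1.28 (SE 0.684, edgeR adjusted p = 0.998).

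Cyp2c summed to 2812 ± 134 CPM over the 6 WT libraries (mean ± SD), 2660 ± 84.2 CPM over the 4 Het and 2780 ± 347 CPM over the 4 Homo libraries. Cyp2c50 had the smallest p of all P450 genes in Homo against WT. Its WT libraries lay at 398, 533 and 622 CPM (lowest, median, highest), Het at 500, 497, 544 and 405 CPM and Homo at 506, 363, 387 and 500 CPM. Homo 2 and Homo 3 were lowest, and the groups overlapped. The log2 fold was -0.27 (SE 0.134, edgeR adjusted p = 0.998). Cyp2c37, 96.1% identical to Cyp2c50, had a log2 fold of -0.29 (SE 0.269), with WT from 58.2 to 135 CPM and Homo at 106, 62.8, 47.7 and 96.4 CPM. Cyp2c67 was at 302, 362 and 423 CPM in the lowest, median and highest WT library, 378, 408, 290 and 362 CPM in the Het libraries and 423, 439, 400 and 313 CPM in Homo, a log2 fold of 0.12 in Homo (SE 0.116). Cyp2c29, an arachidonic acid epoxygenase, ran from 431 to 713 CPM in WT, from 521 to 831 CPM in the Het libraries and from 488 to 683 CPM in Homo. Cyp2c23, also an epoxygenase, ran from 230 to 379 CPM, 229 to 329 CPM and 266 to 380 CPM in the same order.

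Several abundant genes were steady between libraries, among them Cyp2d9, Cyp2d10, Cyp2e1, Cyp2f2 and Cyp2j5. Cyp2d9 was at 958, 1027 and 1064 CPM in the lowest, median and highest WT library, 1038, 947, 1064 and 1040 CPM in the Het libraries and 1060, 1006, 1141 and 999 CPM in Homo. Cyp2d10 lay from 285 to 350 CPM over all groups. Cyp2e1 held 4042, 4352 and 4744 CPM in the lowest, median and highest WT library, 4034, 4093, 4852 and 4062 CPM in the Het libraries and 4212, 3434, 4016 and 4858 CPM in Homo. Homo 2 was the lowest library and Homo 4 the highest, and the groups overlapped (log2 fold -0.08 in Homo, SE 0.0937, and -0.04 in Het, SE 0.0936). Cyp2f2 was at 971, 1126 and 1180 CPM in the lowest, median and highest WT library, 1093 to 1174 CPM in the Het libraries and 1033 to 1210 CPM in Homo. Cyp2j5, an epoxygenase of kidney and liver, was at 301, 318 and 330 CPM in the lowest, median and highest WT library, 335, 323, 336 and 360 CPM in the Het libraries and 336, 337, 292 and 293 CPM in Homo.

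Cyp2u1, a hydroxylase of long-chain fatty acids, had the highest log2 fold of the 40 genes in Homo against WT. Its WT libraries lay at 58.5, 72.6 and 82.5 CPM (lowest, median, highest), Het at 77.7, 67.7, 74.1 and 71.2 CPM and Homo at 82.5, 113, 107 and 49.6 CPM. Homo 2 and Homo 3 lay above all others, and Homo 4 lay lowest of all 14. The log2 fold was 0.30 (SE 0.171, edgeR adjusted p = 0.998), and 0.49 without Homo 4 (edgeR adjusted p = 0.180). Cyp2r1, the vitamin D 25-hydroxylase, held 9.11, 11.0 and 12.8 CPM in the lowest, median and highest WT library, and 11.3 to 12.8 CPM in Homo.

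All 4 Cyp3a folds lay below 0 in Homo against WT (49.4% of all genes did), and at least 3 in each of 21 alternative settings. Cyp3a25 and Cyp3a59 are 97.5% identical, so these signs are not independent. Cyp3a11, the main PXR-induced Cyp3a gene of mouse liver, was at 377, 495 and 532 CPM in the lowest, median and highest WT library, 522, 351, 470 and 368 CPM in the Het libraries and 474, 356, 560 and 284 CPM in Homo. Homo 4 was lowest and Homo 3 highest of the Homo libraries, and the groups overlapped (log2 fold -0.17, SE 0.172, edgeR adjusted p = 0.998). Cyp3a13, also made in gut, held 57.6, 72.0 and 118 CPM in the lowest, median and highest WT library, 61.1, 106, 119 and 84.3 CPM in the Het libraries and 42.7, 50.7, 41.6 and 106 CPM in Homo. In Homo 1, 2 and 3 it lay under all WT libraries, and in Homo 4 above 5 of them. The log2 fold was -0.34 (SE 0.276) in Homo against WT and -0.63 (SE 0.301, edgeR adjusted p = 0.965) in Homo against Het. Without Homo 4 these were -0.76 and -1.04 (edgeR adjusted p = 0.551 and 0.354). Cyp3a25 ran from 104 to 251 CPM in WT and from 105 to 159 CPM in Homo, a log2 fold of -0.24 (SE 0.199).

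Summed by subfamily, reads per library overlapped between WT and Homo and between WT and Het in each of the 12 subfamilies. The Homo mean over the WT mean was 1.03 for Cyp1a, 0.854 for Cyp2a, 0.989 for Cyp2c, 0.994 for Cyp2d, 0.945 for Cyp2e, 0.988 for Cyp2f, 1.00 for Cyp2j, 1.23 for Cyp2u and 0.869 for Cyp3a. Cyp2a without Cyp2a5 gave 0.960. The Het mean over the WT mean ran from 0.914 in Cyp2a to 1.06 in Cyp2j over the same subfamilies. Cyp3a summed to 717 ± 102 CPM in WT, 683 ± 98.5 CPM in the Het libraries and 623 ± 93.4 CPM in Homo. All 40 genes summed to 13301 ± 576, 12894 ± 713 and 12813 ± 878 CPM.

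**Figure D3:**
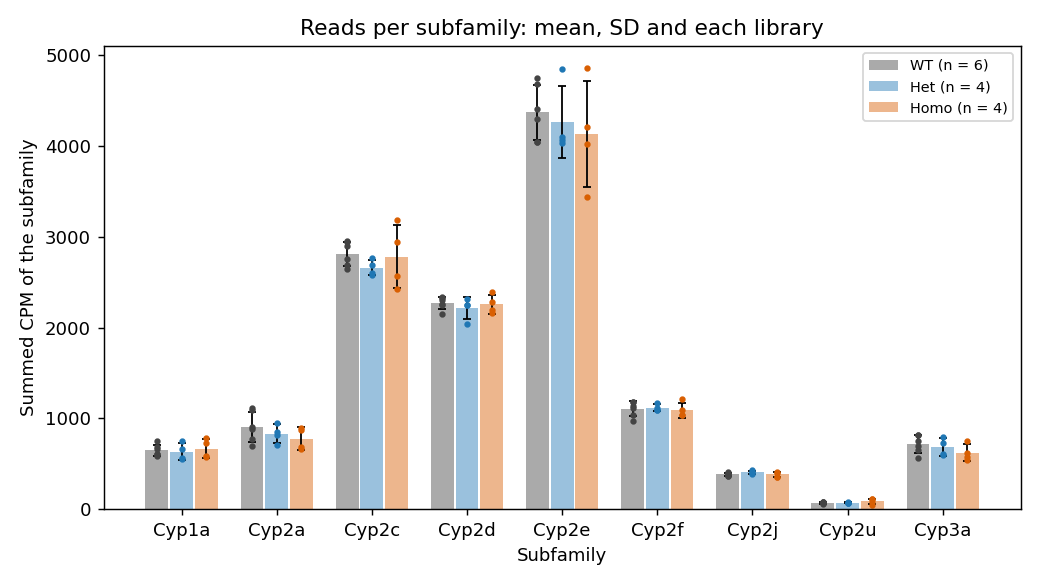
Summed CPM of 9 subfamilies, as bars from 0 with the group mean, the SD and a point a library. Cyp2e, which is Cyp2e1 alone, was highest, and in every subfamily the points of the groups overlap.

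Het livers were compared with the same WT libraries, so the folds against WT are not independent of each other. By edgeR 0 of 40 genes were called, where 9 of 16201 (0.0556%) were called, and DESeq2 called 0. At an unadjusted p under 0.05, 2 of 40 passed by edgeR and 2 by DESeq2, where 4.67% of all genes did by edgeR. No P450 gene had groups that did not overlap, against 1.20% of all genes. Folds lay below 0 in 25 (50% of all genes) and above in 15, with a median of -0.06. The 2 unadjusted genes were Cyp2a4, at a log2 fold of -3.12 (SE 1.32, edgeR adjusted p = 0.998), and Cyp2d11. Cyp2d11, a low copy 94.7% identical to Cyp2d10, held 0.341, 0.680 and 0.765 CPM in the lowest, median and highest WT library, 0.417, 0.273, 0.199 and 0.474 CPM in the Het libraries and 0.495, 0.654, 0.983 and 0.659 CPM in Homo. The fold of Cyp2a4 was -2.71 without WT 2 and -2.32 without WT 4, the libraries with its highest WT levels. The count of 2 fell to 1 without any one of WT 2, WT 4 or Het 1, and to 0 without Het 2 or Het 3. The log2 fold of Cyp2d11 was -0.88 in Het against WT (SE 0.339, edgeR adjusted p = 0.998). It rests on 5 to 26 counts a library. The 6 other smallest p belonged to Cyp2d10 (log2 -0.10), Cyp2c69 (-1.17), Cyp2j5 (0.09), Cyp2c37 (-0.38), Cyp2r1 (0.15) and Cyp2c23 (-0.21). The interval lay inside 1.5-fold for 23 of 40 genes and inside 2-fold for 28.

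In Homo against Het, 0 of 40 genes were called by edgeR, where 5 of 16201 (0.0309%) were called, and DESeq2 called 0. At an unadjusted p under 0.05, 2 passed by edgeR (5.10% of all genes did) and 2 by DESeq2. Cyp2d11 was the 1 gene whose groups did not overlap (2.94% of all genes), higher in Homo (1.42% of all genes lay higher without overlap), at a log2 fold of 1.02 (SE 0.366, edgeR adjusted p = 0.916). Both comparisons with Het use the same Het libraries. Cyp2a4 had a log2 fold of 3.13 (SE 1.39, edgeR adjusted p = 0.958), and 1.38 without Homo 4. The other smallest p belonged to Cyp3a13 (-0.63), Cyp2j5 (-0.11), Cyp2u1 (0.28), Cyp2c68 (0.28), Cyp2c38 (0.53) and Cyp2c23 (0.20). Folds lay below 0 in 20 (49.5% of all genes) and above in 20. When scaled by the library total alone, 13 lay below 0, and the median log2 fold of all genes rose to 0.07.

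Levels varied between libraries of the same genotype as well, most in genes of low or middle level. Over all 14 libraries, with the groups mixed, 21 of the 40 genes had a highest library at least 2 times the lowest, and 13 at least 3 times. Of the 20 genes at 100 CPM or more, 16 had a highest library under 2 times the lowest, and the widest of the 20 reached 3.22 times. The median CV in WT was 12.2% for these 20, against 8.68% for the 1135 tested genes at that level. Cyp2a4 held 0.869, 6.87, 0.316, 9.67, 0.319 and 0.490 CPM in WT 1 to WT 6. Its Het libraries held 0.501, 0.0455, 0.398 and 0.431 CPM, and its Homo libraries 1.95, 0.163, 0.567 and 9.99 CPM. WT 2, WT 4 and Homo 4 stood far above the others. The counts ran from 1 to 252. Cyp2a5 ordered the libraries in part alike: WT 1, WT 2 and WT 4 were the 3 highest WT libraries for both genes, Het 2 was the lowest Het library for both, and the Homo order (Homo 4, 1, 3, 2) was shared. The size differed, since WT 3 and WT 4 held 448 and 464 CPM of Cyp2a5 and 0.316 and 9.67 CPM of Cyp2a4. Cyp2a4 as a percent of Cyp2a5 was 2.09% in WT 4, 2.14% in Homo 4, 1.05% in WT 2 and at most 0.424% elsewhere.

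Cyp2c69 was highest in WT 4 also. Its WT libraries held 4.76, 7.22, 1.75, 37.4, 4.34 and 2.29 CPM, Het 3.38, 2.18, 6.97 and 4.44 CPM and Homo 10.4, 3.35, 4.35 and 11.0 CPM. Cyp2c40, chosen after its values were seen, reached 115 CPM in WT 4, then 57.6 CPM in Homo 1, and otherwise lay between 7.11 and 38.6 CPM in the remaining libraries. Of the same group of copies, Cyp2c68 was also highest in WT 4 and Homo 1, at 219.5 and 215.9 CPM, with the rest at 116 to 176 CPM. Cyp2c67 stayed within 290 to 439 CPM in all 14. The Het against WT fold of Cyp2c69, -1.17, was 0.07 without WT 4.

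Marker genes of female-biased liver expression were looked at beside these values. Cux2, a female-biased liver repressor, was at 8.67 CPM in Homo 4 and at 1.10 CPM or less in the other 13 libraries, and in WT 4, where Cyp2c69 and Cyp2c40 were highest, it was at 0.499 CPM. Acot3 was at 8.78 CPM in Homo 4 and at most 2.76 CPM elsewhere. Each library held Y-linked counts, from 2616 to 6238, with Xist at 12 counts or fewer, so all 14 libraries read as male by these genes. The female-biased A1bg and Cyp3a41a stayed at 0.220 and 0.499 CPM or less. The part of these genes in the variation of Cyp2a4 was not tested. WT 1, Het 1 and Homo 2 held 212, 229 and 144 CPM of Alas1, the rate-limiting enzyme of heme synthesis, and the other libraries 553 CPM or more. Por ranged from 246 CPM in Homo 2 to 559 CPM in Het 3. Homo 2 was the lowest library for 6 of the 40 P450 genes, Cyp2e1 and Cyp2a5 among them. It was the highest for 2, Cyp2u1 and Cyp2c67, at 113 and 439 CPM. WT 1 was lowest for 3 and highest for 2, and Het 1 lowest for 1 and highest for 1. The part of Alas1 and Por in these levels was not tested.

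**Figure D4:**
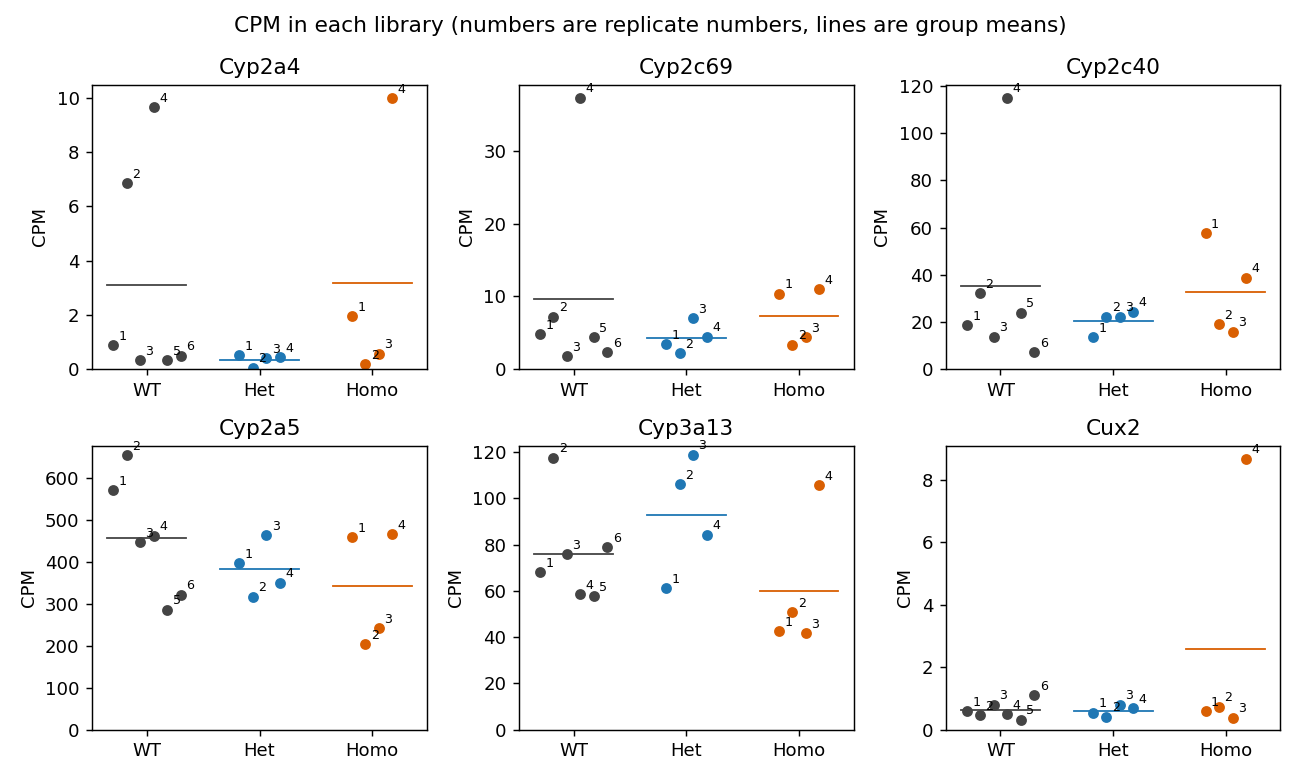
CPM of Cyp2a4, Cyp2c69, Cyp2c40, Cyp2a5, Cyp3a13 and Cux2 in each library from 0, with the replicate number beside each point and the group mean as a line. WT 4 stands above the others in Cyp2c69 and Cyp2c40, and Homo 4 in Cux2.

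**Figure D5:**
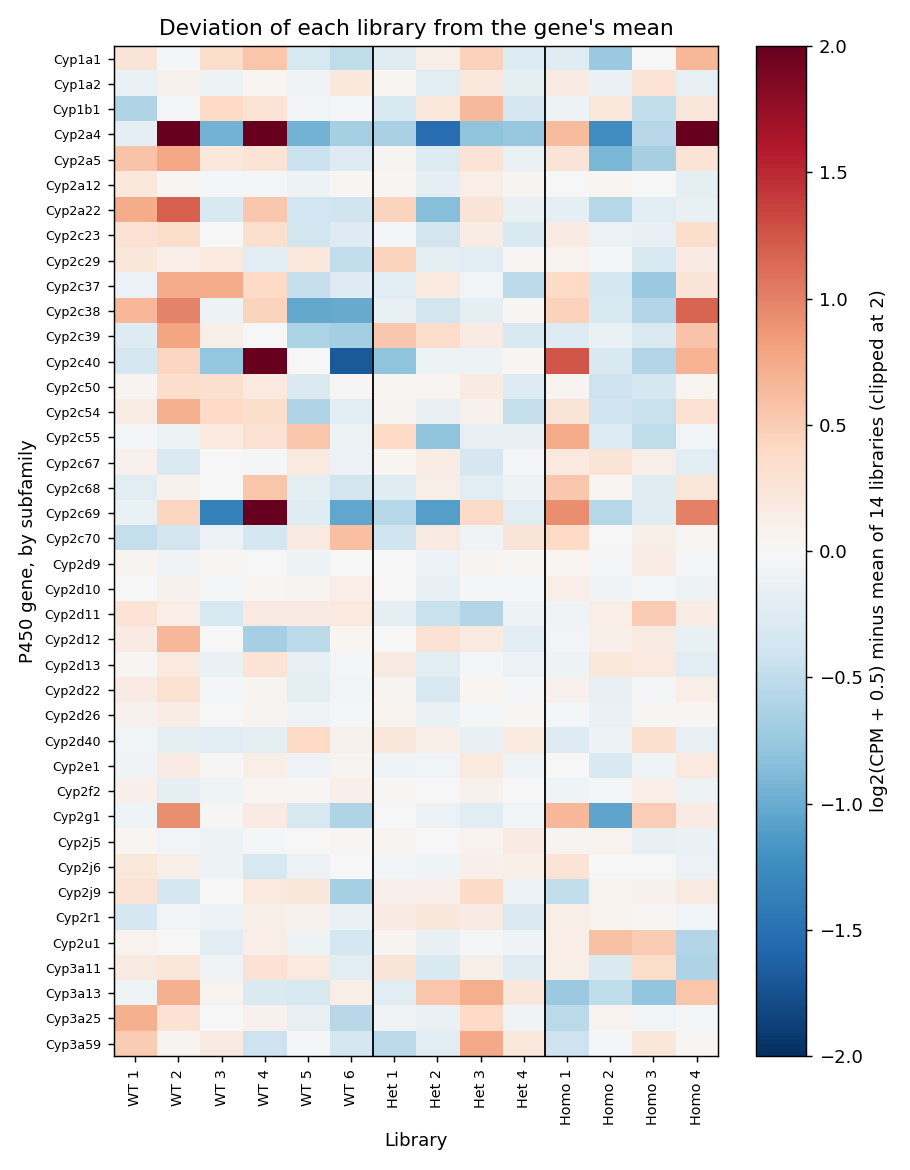
Each library's log2(CPM + 0.5) of each P450 gene minus that gene's mean over the 14 libraries, with colours clipped at 2 in either direction and lines between the groups. The strongest colours lie in Cyp2a4, Cyp2c40 and Cyp2c69 and follow single libraries, not the lines between the groups.

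Genes around the P450 system were taken from lists. All 12 receptors and liver regulators were tested, with 0 called by edgeR in any comparison. Ahr was at 61.9 ± 11.6, 71.8 ± 20.8 and 59.8 ± 20.4 CPM in WT, Het and Homo, Nr1i3 at 133 ± 34.7, 117 ± 38.5 and 114 ± 43.4 CPM, Nr1i2 at 54.2 ± 6.58, 57.1 ± 7.92 and 51.5 ± 11.7 CPM and Hnf4a at 533 ± 56.1, 510 ± 51.4 and 513 ± 57.8 CPM (SD, n = 6, 4 and 4). The smallest p among them in both comparisons with WT belonged to Nr0b2, a corepressor of bile acid synthesis, at 15.9 ± 7.25, 10.7 ± 3.19 and 21.99 ± 10.4 CPM. By the same test 0 of 5 redox partners, 0 of 11 heme genes, 0 of 5 tested AhR battery genes, 0 of 13 tested CAR and PXR targets, 0 of 7 tested female-biased, 0 of 12 pericentral and 0 of 12 periportal genes were called in any comparison. Over all 9 lists, 88 of 97 genes were tested. In Homo against WT 9 of them (10.2%) had an unadjusted edgeR p under 0.05, where 4.73% of all genes did. In Het against WT 6 did (6.82%, against 4.67%) and in Homo against Het 12 (13.6%, against 5.10%), of which 5 were among the 12 pericentral genes. These 5 split in direction in Homo against Het. Tbx3, Axin2 and Slc22a3 were higher (log2 fold 0.66, 0.59 and 0.45), and Rhbg and Oat lower (-0.42 and -0.25). DESeq2 called 1, 0 and 2 of the 88 in the same order, where it called 0.358%, 0.185% and 0.0864% of all genes. The lists were chosen with earlier results of these data known. Their shares beside those of all genes therefore describe the lists and cannot test for an excess. Of the genes with the smallest p of their list, the pericentral ornithine aminotransferase Oat was at 232 ± 22.2, 221 ± 18.1 and 186 ± 11.1 CPM in the 3 groups, and the pericentral regulator Tbx3 at 42.9 ± 7.69, 28.0 ± 4.73 and 44.3 ± 8.96 CPM. The periportal lipid droplet enzyme Hsd17b13 was at 236 ± 26.5, 134 ± 47.7 and 148 ± 62.1 CPM. The heme genes Ppox and Alad were at 9.29 ± 1.15, 9.65 ± 0.794 and 11.8 ± 1.59 CPM and at 90.8 ± 30.7, 64.6 ± 15.1 and 111 ± 44.0 CPM. Pgrmc1, a heme-binding partner of P450 enzymes, was at 608 ± 95.3, 572 ± 4.86 and 540 ± 20.9 CPM. The glucuronosyltransferase genes Ugt1a6a and Ugt1a6b, which share exons, were at 31.3 ± 2.81, 31.5 ± 4.18 and 36.6 ± 4.79 CPM and at 85.4 ± 4.17, 90.3 ± 5.86 and 83.6 ± 10.6 CPM. The male-biased urinary protein gene Mup20 was at 3938 ± 1111, 5936 ± 1095 and 3156 ± 818 CPM. None of these passed the threshold against WT. Of 12 male-biased genes 1 was lower in Homo against WT (0.0617% of all genes were), which was Cyp4a12b, a fatty acid hydroxylase.

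Cyp4a12b held 84.1, 56.1, 84.7, 80.5, 69.8 and 67.8 CPM in WT 1 to WT 6, 54.3, 87.4, 90.1 and 106 CPM in the Het libraries and 33.3, 32.1, 33.0 and 49.8 CPM in Homo. All Homo libraries lay under all WT and Het libraries. Its log2 fold in Homo against WT was -0.996 (edgeR adjusted p = 0.0297). Cyp4a12a, from the same male-biased list, had a fold of the other sign and was not called. It was at 386 ± 158, 378 ± 80.8 and 461 ± 75.8 CPM in WT, Het and Homo. The log2 fold of Cyp4a12a in Homo against WT was 0.26 (SE 0.2585, edgeR adjusted p = 0.998). Whether the counting kept these genes apart was not tested, so the lower level is stated for Cyp4a12b alone. DESeq2 called Cyp4a12b in Homo against WT too, and Cyp4a12b and Aldh1a1 in Homo against Het. The edgeR call was lost without any one of WT 1, WT 3, WT 4, WT 5, WT 6, Het 2, Homo 1, Homo 2 or Homo 3, with edgeR adjusted p from 0.0517 to 0.167. Aldh1a1, a CAR target and retinal dehydrogenase, had a mean of 392 ± 38.7 CPM in WT, 463 ± 29.2 CPM in the Het libraries and 337 ± 35.9 CPM in Homo, which was not called against WT in either (edgeR adjusted p = 0.998 and 0.993).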

How the data were processed

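Liver RNA for the 14 libraries was extracted with Trizol and a Qiagen RNeasy column and sequenced after a NuGen Ovation mouse library kit, per the labels' protocols. The authors deposited estimated counts per gene, 1 column a library, for which STAR, Salmon and the build GRCm39 are listed, per the submitters' processing notes. Tool versions, annotation release and strand setting: not given in the sources used here. Division of reads between near-identical copies rests on that estimation: 24 of the 40 P450 genes had a value that was not whole in every library (tolerance 0.01).

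Counts were rounded, filtered with filterByExpr of edgeR 4.0.16 (minimum count 10, minimum total 15), scaled with TMM and tested with glmQLFit and glmQLFTest in R 4.3.3, all 14 libraries in 1 fit. P-values were adjusted with Benjamini-Hochberg over all 16201 genes and called under 0.05. CPM used the TMM effective library size. Lengths and coding sequences came from GENCODE M21, whose build (GRCm38) differs from that of the counts, and coding sequences were compared with BLAST 2.17.0. Promoters came from RefSeq on GRCm38.p6. The edgeR script was tested on simulated data.

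Totals ran from 18573686 to 40925909 counts a library, so a gene at 0.5 CPM rested on few counts. No 2 libraries were identical (closest pair, chi-square 24.5 per degree of freedom). Replicate numbers did not pair libraries: correlations of same-numbered deviations ran from -0.08 to 0.21 over 12 pairs. Alternatives were another scaling (size factors, library total), DESeq2 1.42.0, no filter, the 2 groups alone, each library left out and a replicate block. The members and gene lists were chosen with earlier results of these data known. Genes were named by a rule: the highest of each subfamily, the 8 smallest p in each comparison, a fixed set of well-known genes, Pkd1, and the smallest p of each list against WT. Other genes given by name, such as Cyp2c40, Cyp2c70, Cyp2d26, Ahr, Nr1i2, Nr1i3, Hnf4a, Alas1 and Por, were chosen outside the rule, after their values were seen.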

Additional observations from a re-analysis of the deposited data

Results flagged for a closer look

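Among the 27 named P450 genes, 81 groups were examined for a library far from the others, and 8 stood apart by the gap to the nearest library over the range of the group. About 1 group in 20 does so by chance. Cyp2c69 was at 37.4 CPM in WT 4, where the next WT library was at 7.22 CPM. Cyp3a13 was at 118 CPM in WT 2 (next 78.8 CPM) and at 106 CPM in Homo 4 (next 50.7 CPM). Cyp2d11 was at 0.341 CPM in WT 3 and at 0.644 CPM or more in the other WT libraries. Cyp2g1, an olfactory P450, was at 2.11 CPM in WT 2, against 1.04 CPM in the next. Het 3 had the highest Cyp2e1 of its group, 4852 CPM against 4093 CPM, and the highest Cyp3a25, 202 CPM against 146 CPM. Cyp2r1 was at 9.48 CPM in Het 4 and at 13.2 CPM or more in the other Het libraries.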

How the results depend on the processing

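No P450 gene was called under any of 21 alternatives in any comparison, with 0 to 4 unadjusted genes in Homo against WT, 0 to 4 in Het against WT and 1 to 3 in Homo against Het. The smallest adjusted p was 0.147 in Homo against WT (Cyp2u1, WT 4 and Homo 4 both left out, an alternative chosen after seeing the data), 0.783 in Het against WT without the count filter and 0.354 in Homo against Het (Cyp3a13, without Homo 4). Signs were less firm: 17, 22 and 20 of 40 genes kept the sign of their fold under all 21 alternatives. The folds of Cyp1a2 turned without single libraries, from -0.0453 to 0.106 in Homo against WT and from -0.132 to 0.0214 in Het against WT, and that of Cyp2c69 in Het against WT ran from -1.52 to 0.0671. The number of all genes called was 63 by DESeq2 in Homo against WT, 35 in Het against WT and 19 in Homo against Het. It was 23 in Het against WT without the filter, 2 in Homo against Het with only the 2 groups compared, and 23 to 40 in Homo against WT with single libraries left out (23 without Homo 1). The minimum of 0.5 CPM left 40 genes, 1 CPM 33 and 0.1 CPM 45. The cause of these shifts was not tested.

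Replicate numbers did not pair the libraries, and 3 of the 12 pairs had a correlation above 0.1. With a replicate block 0 P450 genes were called in each comparison, and all genes called fell to 19 in Homo against WT and 2 in Homo against Het. The Pkd1 and Cyp4a12b calls were lost under it (adjusted p = 0.0710 and 0.0773), and that of Pkd1 also under the library total alone (adjusted p = 0.0576). Depth limits the 7 genes under 1 CPM most.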
